A study of Mus musculus with 12 samples.

Results

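The genes described here encode the proteins of the cytosolic ribosome in primary mouse brain endothelial cells (BECs). A gene was a member when its symbol had the form of a large-subunit (Rpl) or small-subunit (Rps) protein, was Rplp0, Rplp1, Rplp2 or Rpsa, and carried no pseudogene suffix. Of 32419 genes listed in either deposited table, 88 were members, 52 of the large subunit and 36 of the small subunit. The NX/NG table listed 87 of them and the OGD-R table all 88, the difference being Rpl3l. In the GENCODE annotation 82 members were protein coding, whereas Rpl6l, Rpl32l, Rps3a2, Rps3a3, Rps4l and Rps12l1 were annotated as processed pseudogenes, so that the symbol rule took in 6 genes that the annotation does not treat as coding.

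The study asked how the lack of cortistatin, a neuropeptide encoded by Cort, changes brain endothelium at rest and after an ischemia-like insult. BECs were isolated from Cort+/+ and Cort-/- mice of 8 weeks and selected with puromycin, and each biological replicate was a pool of 3 mice. Cultures stayed for 24 h in normoxia and normoglycemia (NX/NG, 21% oxygen and 5.5 mM glucose) or were deprived of oxygen and glucose for 4 h at 1% oxygen and then reoxygenated for 20 h (OGD-R). The deprivation medium also lacked serum, which was given back for the reoxygenation, while controls stayed in normal medium. Effects of serum and of oxygen and glucose therefore cannot be told apart in OGD-R. RNA-seq columns were available for 3 Cort+/+ and 2 Cort-/- libraries in each environment, 10 of the 12 samples listed. Of the Cort-/- samples, the third under NX/NG and the second after OGD-R were not analysed here. Each environment has its own table, so environment and table cannot be told apart. Whether the mice of different replicate pools were littermates is not given, and the p-values below measure the spread between these pools.

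Ribosomal protein mRNAs are among the most abundant transcripts of growing cells, and their proteins are made in nearly equal amounts because each ribosome needs one set. Most of these mRNAs begin with a short run of pyrimidines at the 5′ end, the TOP motif, through which the mTOR kinase and the RNA-binding protein Larp1 control their translation and stability. Because the genes are regularly used as references in qPCR, Rplp0 in this study among them, their spread between cultures also sets the scale on which other genes are read.

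The start sites of members named below are shown because the pyrimidine run of a TOP mRNA begins at the start of the transcript. RefSeq promoter sequences of GRCm38.p6 were held for 63 of the members, and each line gives 30 bases of the gene's strand, 15 before and 15 from the annotated start. Capitals mark the pyrimidine motif CTTTCC, its variant CTTTTC, or the third motif searched, which is CTCTTT. All were searched on the sense strand only, and they are run together where they overlap. In Rpl4 and Rps15a the marked letters lie before the RefSeq start, outside the transcript annotated there. Pyrimidine runs of other letters, such as ttctcttccc in Rpl22l1, are not marked. The marks therefore do not show which mRNAs carry the TOP motif.

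Rps6, chr4:86857353-86857382, minus strand: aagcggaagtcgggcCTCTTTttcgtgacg
Rpl4, chr9:64173372-64173401, plus strand: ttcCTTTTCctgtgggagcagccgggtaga
Rpl28, chr7:4792950-4792979, plus strand: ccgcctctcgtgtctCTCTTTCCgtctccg
Rpl35, chr2:39005117-39005146, minus strand: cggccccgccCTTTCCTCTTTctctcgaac
Rps15a, chr7:118116133-118116162, minus strand: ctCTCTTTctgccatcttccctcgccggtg
Rps27, chr3:90213634-90213663, minus strand: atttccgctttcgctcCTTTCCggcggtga
Rplp0, chr5:115559452-115559481, plus strand: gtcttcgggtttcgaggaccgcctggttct
Rpl22, chr4:152325711-152325740, plus strand: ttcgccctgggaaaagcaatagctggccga
Rpl22l1, chr3:28805493-28805522, plus strand: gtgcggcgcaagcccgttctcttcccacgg
Rpl31, chr1:39367836-39367865, plus strand: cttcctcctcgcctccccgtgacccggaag

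Within 25 bases on either side of the start, at least 1 of the 3 motifs was present in 26.7% of 75 member promoters, compared with 5.55% of 32851 promoters of all genes. The motif CCGGAAG, the core letters bound by ETS-family factors, was found on either strand of the 300 bases in 36% of member promoters and 8.86% of all promoters. TATAAA between 40 and 10 bases before the start was present in 1.33% and 2.08%, respectively. These are matches of letters and not mapped sites, and the window of Rplp0, Rpl22, Rpl22l1 or Rpl31 above held none of the 3 pyrimidine motifs.

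Depth was nearly equal in all libraries, with 12386048 to 12390428 reads on genes. The targeted gene Cort had 1 or 2 reads in each Cort+/+ NX/NG library, 0 or 1 in each Cort+/+ OGD-R library and 0 in all 4 Cort-/- libraries. A count of 0 allows up to 3 reads, so Cort did not check the genotype labels at this depth. Ribosomal RNA took 7.87% to 16.2% of the reads in 8 libraries. The 2 others were OGD-R libraries, replicate 1 of Cort+/+ with 0.106% and replicate 3 of Cort-/- with 0.127%, and are called rRNA-poor below. The summed level of 12 endothelial markers was 1005 to 1451 RPKM (reads divided by gene length in kilobases and by the scaled library size), with Cdh5 between 443 and 740 RPKM. The 5 smooth muscle markers summed to 995 to 1777 RPKM, nearly all of it Acta2 and Tagln. Markers of astrocytes and oligodendrocytes summed to at most 0.323 and 0.631 RPKM.

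The cytosolic ribosomal protein genes took 2.04% to 3.23% of all reads on genes. Under NX/NG, the share was 2.33%, 2.53% and 2.14% in Cort+/+ replicates 1 to 3, and 2.12% and 2.33% in Cort-/- replicates 1 and 2. After OGD-R, the 3 Cort+/+ libraries gave 2.78%, 2.68% and 2.63%, and Cort-/- replicates 1 and 3 gave 2.04% and 3.23%. The lowest and the highest share of the series thus belonged to the same group. With ribosomal RNA taken out of the total, the same Cort-/- OGD-R libraries held 2.26% and 3.23%, the Cort+/+ OGD-R libraries 2.78% to 3.20%, and the NX/NG libraries 2.38% to 2.75%.

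Most members were expressed at high levels. Averaged over the 5 NX/NG libraries, 81 members reached 10 RPKM, 4 lay between 1 and 10 RPKM and 2 were under 1 RPKM. The median member had 125 RPKM, compared with 0.652 RPKM for the median of all listed genes, and members made up 52 of the 374 genes at 100 RPKM or more. Rplp1, which encodes an acidic protein of the stalk that recruits elongation factors, was the highest, with means of 1201 ± 14.4 RPKM for the 3 Cort+/+ and 1120 ± 25.3 RPKM for the 2 Cort-/- libraries (SD). Rplp0, the stalk base that anchors Rplp1 and Rplp2, came second, with 559 ± 17.7 and 521 ± 14.1 RPKM. The third stalk protein, Rplp2, stood at rank 40 with a mean of 128 RPKM over the 5 libraries. High levels were also seen for Rpl4, Rps15, Rpl32, Rps4x, Rpl19, Rps3a1 and Rps2, with means from 419 down to 328 RPKM. Of these, Rpl32 to Rps2 spanned 328 to 348 RPKM with SDs over libraries of 9.64 to 22.4 RPKM, so that neighbours in the order were not separated by more than their spread.

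**Figure D1:**
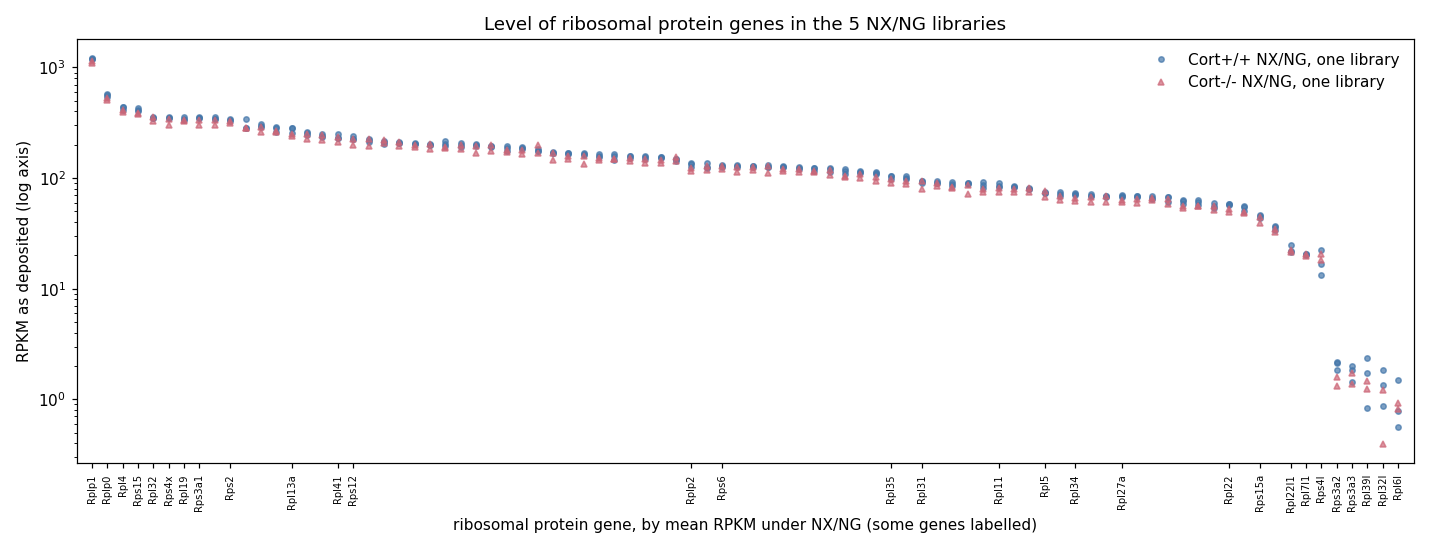
RPKM as deposited (log axis) of 86 members in the 5 NX/NG libraries, ordered by mean and labelled for some genes, with circles for the 3 Cort+/+ and triangles for the 2 Cort-/- libraries. Rps12l1, listed at 0 in some libraries, is not drawn. Levels decline gradually from Rplp1 to Rps4l, and Rps3a2, Rps3a3, Rpl39l, Rpl32l and Rpl6l lie near or below 2 RPKM.

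This order depends on the gene length used. The lengths of the deposited tables were 1 to 11.9 times the median annotated transcript of the same gene, with a median of 2.36 over the members. Rescaled to the median transcript, Rplp1 remained first, Rpl13a moved from rank 14 to rank 2, Rps12 from rank 18 to rank 4 and Rps24 from rank 67 to rank 5. In addition, a median of 40.1% of the 40-base words of a member's transcripts also occurred in transcripts of other genes, and the share exceeded 50% for 29 members. Levels of single members are therefore uncertain where reads could be split between copies, for example for Rps6 with 84.7% and Rps4x with 76.4% of words shared, while Rps3 with 4.80% had nearly unique sequence.

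The main pattern was common movement of the members between libraries. After all 10 libraries had been scaled together, each member at 10 RPKM or more was compared with its own mean over the 10 libraries. The median of the 81 members lay between -0.06 and -0.01 on the log2 scale in the 3 Cort+/+ NX/NG libraries. It was -0.17 and -0.07 in Cort-/- NX/NG replicates 1 and 2. After OGD-R, it was 0.00, 0.25 and 0.13 in Cort+/+ replicates 1 to 3, and -0.24 and 0.22 in Cort-/- replicates 1 and 3. All 81 members lay below their own mean in Cort-/- OGD-R replicate 1, and 79 or 80 lay above it in each of 3 OGD-R libraries, replicates 2 and 3 of Cort+/+ and replicate 3 of Cort-/-. The median of the 4642 other genes at this level stayed between -0.02 and 0.05 in these 10 libraries.

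**Figure D2:**
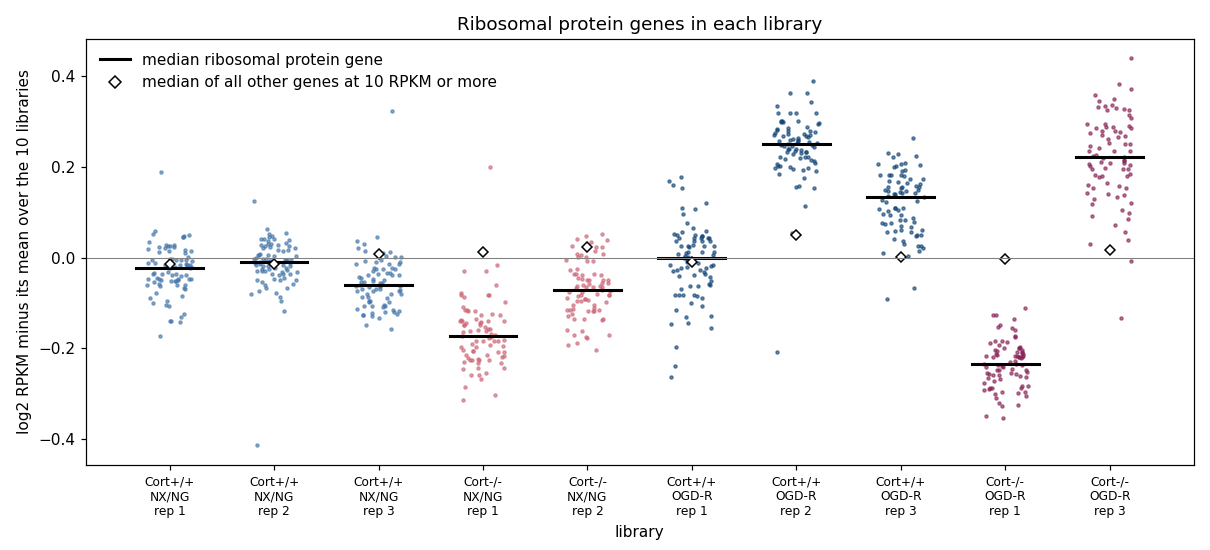
Difference between the log2 RPKM of a member and its mean over the 10 libraries, one point for each of 81 members in each library, with black lines at the member medians and open diamonds at the median of 4642 other genes. Members move together within a library, and the 2 Cort-/- OGD-R libraries lie at -0.24 and 0.22.

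Single members followed this common movement closely. The SD of log2 RPKM over the 10 libraries had a median of 0.17 over members, compared with 0.14 over all 4723 genes at 10 RPKM or more. When the median member of each library was taken off, the SD of a member fell to a median of 0.06. Across the 3240 pairs of members, the median Pearson correlation over the 10 libraries was 0.89, a description of libraries that share their scaling. The closest follower was Rps7, a small-subunit protein, with an SD of 0.02 after the library median was removed. Both subunits moved alike: the large-subunit median was 0.24 and the small-subunit median 0.26 in the highest library, replicate 2 of Cort+/+ OGD-R, and they were -0.23 and -0.24 in the lowest, replicate 1 of Cort-/- OGD-R. Members with at most 20% of words shared with other genes (15 genes) gave -0.24 in that last library, and those with over 50% (25 genes) gave -0.22. The 16 members with a pyrimidine motif in the 30 bases at the start gave -0.26 there, and the 44 without gave -0.23.

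The exceptions were few. Rps4l, a transcribed copy of Rps4x, had a correlation of -0.01 with the median of the other members and the largest SD after its removal, 0.29. Its levels ran from 13.7 RPKM in Cort+/+ NX/NG replicate 2 to 23.3 RPKM in Cort-/- OGD-R replicate 3. Rpl22l1, the paralog of Rpl22 that can take its place in the large subunit, had a correlation of 0.31. Rpl7l1, a relative of Rpl7 with a role in ribosome assembly, had the smallest overall SD of these 3, 0.09, and stayed between 17.7 and 22.3 RPKM in all libraries.

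The 2 rRNA-poor libraries also differed from the others in which members were high. In the Cort+/+ one, Rpl22l1, Rpl39 and Rps15a lay at -0.26, -0.24 and -0.20 from the median member on the log2 scale, and in the Cort-/- one these genes lay at -0.35, -0.19 and -0.23. Rpl28 was 0.18 and 0.16 above the median member in these libraries. Rps15 and Rpl18 completed the 3 highest in the first with 0.17 and 0.16, and Rpl41 and Rps28 in the second with 0.22 and 0.15. In the 3 other OGD-R libraries, Rpl39 lay between -0.02 and 0.14 and Rpl28 between -0.12 and 0.04 of the median member. The part of the low rRNA share in these values was not tested, and its origin is not given.

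The first comparison asked whether BECs lacking cortistatin differ at rest. Under NX/NG, 82 of 87 members had a lower mean in Cort-/- than in Cort+/+ BECs, with a median log2 difference of -0.10, or 0.933 of the Cort+/+ level. The median over all 29965 genes tested was -0.01. In limma's test with Benjamini-Hochberg adjustment over all genes, 0 members passed the 0.05 threshold (0% of all genes did), and limma-voom on reads recovered from the RPKM values called 0 members as well. Without adjustment, 7 members were under 0.05, each lower in Cort-/-, or 8.05% of members compared with 4.82% of all genes in that direction and 8.62% of genes at 10 RPKM or more. In 45 members (51.7%) both Cort-/- libraries were below all 3 Cort+/+ libraries, compared with 12.3% of all genes and 16.8% of genes at 10 RPKM or more. No member showed the opposite separation, compared with 10.8% of all genes and 20.3% of genes at 10 RPKM or more.

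Rpl22, an RNA-binding protein of the large subunit, had the smallest p in this comparison. It had 58.8, 58.0 and 57.5 RPKM in the Cort+/+ replicates, and 49.5 and 52.4 RPKM in the Cort-/- replicates. The groups did not overlap, and the log2 difference was -0.19 with an SE of 0.05 (limma, adjusted p = 0.408). Rpl27a had 69.2 ± 1.77 RPKM in Cort+/+ and 62.0 ± 1.32 RPKM in Cort-/- (SD, n = 3 and 2; limma, adjusted p = 0.495), and Rpl34 had 71.7 ± 1.32 and 64.1 ± 3.68 RPKM (limma, adjusted p = 0.541). The processed pseudogene Rps3a2, with 13 to 22 reads per library and 91.6% of words shared, had the third smallest p (log2 difference -0.47, SE 0.15; limma, adjusted p = 0.523). Rpl5 and Rpl11, which with 5S rRNA form the particle that binds Mdm2 under nucleolar stress, differed by -0.04 and -0.15 (SE 0.07 and 0.06), and Rps6, the substrate of S6 kinase, by -0.05 (SE 0.06).

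The size of the difference depended on which Cort-/- library was kept. Without Cort-/- replicate 1, the median of the members was -0.05 with 18 members higher, and without Cort-/- replicate 2 it was -0.13 with 24 members (27.6%) under an unadjusted p of 0.05, compared with 9.56% of all genes in that fit. With all 10 libraries in 1 fit, which shares the spread of all groups, 0 members were under that level, compared with 7.71% of all genes. Marker sums also differed between the genotypes. The 12 endothelial markers summed to 1005 to 1258 RPKM in Cort+/+ and 1282 to 1420 RPKM in Cort-/- libraries, and the 7 fibroblast and leptomeningeal markers to 157 to 224 and 62.8 to 93.6 RPKM, none of them at 0 in every library but 4 of 7 under 1 RPKM in each. The 7 pericyte markers summed to 19.4 to 24.4 RPKM in Cort+/+ and 9.45 to 12.1 RPKM in Cort-/- libraries, and the 7 macrophage and microglial markers to 2.60 to 3.15 and 3.84 to 4.06 RPKM. In every library, 3 pericyte markers and 5 macrophage and microglial markers were under 1 RPKM. Of the latter list, only Cd68 and Csf1r reached 1 RPKM. Col1a1 and Col1a2 (medians of 136 and 48.9 RPKM over the 10 libraries) made up nearly all of the fibroblast and leptomeningeal sum. These sums thus rest on few genes of their lists. The part of these markers in the member levels was not tested. In bulk RNA, fewer cells of a type and less RNA per cell cannot be told apart.

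The second comparison set the genotypes side by side after OGD-R. The median log2 difference of the 88 members between Cort-/- and Cort+/+ was -0.12, with 84 lower, compared with -0.01 over 29775 genes. In limma, 0 members passed the threshold (0% of all genes), and 0 members were under an unadjusted p of 0.05, where 1.71% of all genes were lower at that level. limma-voom called 0 members, with 1 under an unadjusted p of 0.05, compared with 4.04% of all genes. In 0 members did both Cort-/- libraries lie below the 3 Cort+/+ libraries, compared with 6.71% of all genes.

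The 2 Cort-/- libraries lay far apart. The median member was 1.38 times as high in replicate 3 as in replicate 1, and 80 of 81 members were higher in replicate 3. The median SE of a member was 0.20 here, compared with 0.07 under NX/NG. Without replicate 1, the median difference from Cort+/+ was 0.10 and 79 of 88 members were higher. Without replicate 3, it was -0.36 and 86 of 87 were lower, with 17 members (19.5%) under an unadjusted p of 0.05, compared with 9.43% of all genes in that fit. When both rRNA-poor libraries were left out, a choice made after the data were seen, the median was -0.43. The direction of the members after OGD-R therefore depends on which Cort-/- library is kept. Cort-/- replicate 1 also had the highest endothelial marker sum of the series, 1451 RPKM, and the lowest smooth muscle sum, 995 RPKM. Its 6 epithelial markers summed to 37.0 RPKM, compared with 1.43 to 8.81 RPKM in the other OGD-R libraries and 3.88 to 49.7 RPKM under NX/NG. The part of these cells in the result was not tested.

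After OGD-R, 1.14% of members had both Cort-/- libraries above all 3 Cort+/+ libraries, compared with 7.54% of all genes. Rpl39l, a paralog of Rpl39 best known from germ cells, was the only such member and the only one with separated groups. It had 0.876, 1.30 and 0.805 RPKM in Cort+/+ and 1.33 and 2.91 RPKM in Cort-/- libraries, from 8 to 33 reads (log2 difference 0.95, SE 0.40; limma, adjusted p = 0.978). The next by p were Rpl22 (-0.24, SE 0.14), Rps12l1 and Rps27l (-0.23, SE 0.16), each with an adjusted p of 0.978 in limma. Rps12l1 had 1 read in 3 of the 10 libraries and 0 in the others.

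The third comparison asked how OGD-R changes wild-type BECs. In Cort+/+ cells, 81 of 87 members had a higher mean after OGD-R than under NX/NG, with a median log2 difference of 0.14, or 1.10 times the NX/NG level, compared with -0.01 over 27075 genes. In limma, 0 members passed the threshold, compared with 0.0332% of all genes, and limma-voom called 0. Without adjustment, 12 members (13.8%) were under 0.05, each higher after OGD-R, compared with 3.01% of all genes and 5.70% of genes at 10 RPKM or more. In 31 members (35.6%) all 3 OGD-R libraries were above all 3 NX/NG libraries, compared with 5.12% of all genes and 9.46% of genes at 10 RPKM or more. These members are not independent of each other either.

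Rpl31, a protein at the rim of the peptide exit tunnel, gave the smallest p. On the joint scale it had 92.3, 96.5 and 96.0 RPKM under NX/NG and 113, 121 and 113 RPKM after OGD-R. The groups were well apart, with a log2 difference of 0.29 and an SE of 0.07 (limma, adjusted p = 0.751). Rpl41, the smallest ribosomal protein, had 238, 256 and 236 RPKM under NX/NG and 282, 307 and 308 RPKM after OGD-R (log2 difference 0.30, SE 0.09; limma, adjusted p = 0.881). Rpl35 and Rpl21 followed with 0.22 each (SE 0.07 and 0.08). Rplp1, in contrast, overlapped between environments, with 1232, 1242 and 1216 RPKM under NX/NG and 1109, 1508 and 1382 RPKM after OGD-R (log2 difference 0.10, SE 0.23). The size of the median depended on the OGD-R libraries kept. Without replicate 1, which is rRNA-poor, it was 0.22, with 44 members (50.6%) under an unadjusted p of 0.05, compared with 6.77% of all genes. Without replicate 2, which is not, it was 0.08, with 3 members (3.45%) compared with 4.40% of all genes. With all 10 libraries in 1 fit, which shares the spread of all groups, 0 members were under that level, compared with 4.9998% of all genes. In these settings, 0 members passed the adjusted threshold in limma.

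In Cort-/- BECs the median log2 difference between OGD-R and NX/NG was 0.12, with 78 of 87 members higher, compared with 0.00 over 26523 genes. In limma, 0 members passed the threshold (0% of all genes), and 0 were under an unadjusted p of 0.05, compared with 2.21% of all genes in the higher direction. limma-voom called 0 members, with 0 under an unadjusted p of 0.05, compared with 3.96% of all genes. Only 1 member, Rps3a2, had both OGD-R libraries above both NX/NG libraries, compared with 14.4% of all genes. Rpl22l1 had the smallest p and the opposite order, with 22.0 and 23.3 RPKM under NX/NG and 20.8 and 20.5 RPKM after OGD-R (log2 difference -0.13, SE 0.08; limma, adjusted p = 0.922). Rpl37 and Rpl31 differed by 0.25 and 0.24 (SE 0.22 each). Without replicate 1 the median was 0.35 and 86 of 87 members were higher, whereas without replicate 3 it was -0.12 and 86 of 87 were lower.

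The test of whether the response to OGD-R differs between genotypes gave a median of -0.04, with 61 of 87 members below 0, compared with 0.00 over 27321 genes. Genes of like level lay nearer to the members. All genes at 10 RPKM or more had a median of -0.03, with 60.4% below 0. The 81 members at that level had -0.05, with 74.1% below 0. In limma, 0 members passed the threshold, compared with 0.011% of all genes, and 0 were under an unadjusted p of 0.05, compared with 2.85% of all genes. limma-voom called 0 members, with 0 under an unadjusted p of 0.05, compared with 2.71% of all genes. The smallest p values belonged to Rpl39l (1.11, SE 0.64), Rps3a2 (0.40, SE 0.39), Rpl7l1 (-0.11, SE 0.12) and Rpl32l (0.47, SE 0.70), each with an adjusted p of 0.9998 in limma, and 3 of these 4 had at most 33 reads in a library. The median was 0.18 without Cort-/- OGD-R replicate 1 and -0.27 without Cort-/- OGD-R replicate 3. It also changed sign, to 0.02, with quantile normalization.

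**Figure D3:**
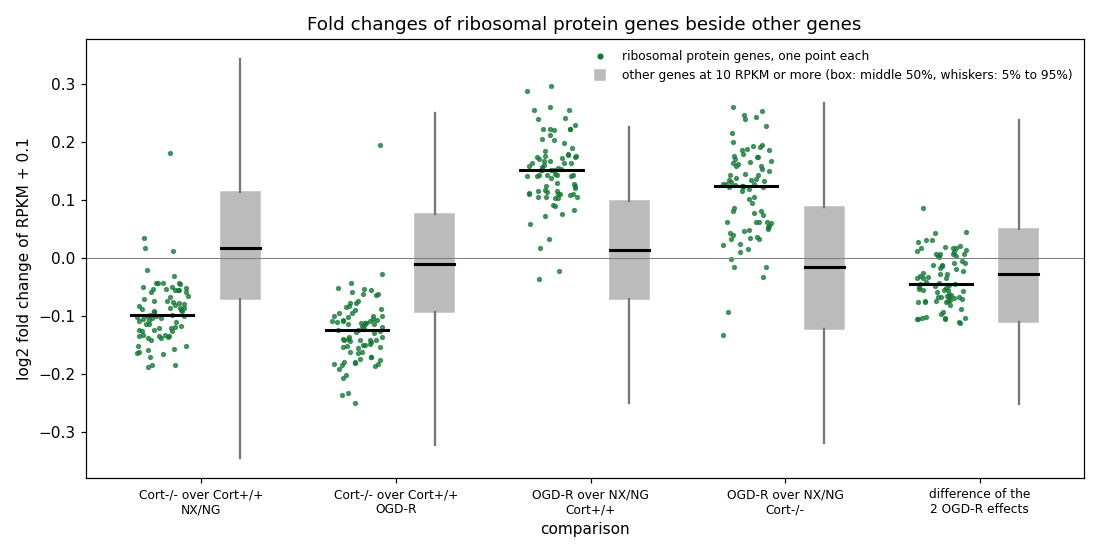
Log2 fold changes of the 81 members at 10 RPKM or more (points, black line at the median) in the 5 comparisons, beside other genes at this level (grey box for the middle 50%, whiskers from 5% to 95%). Members lie mostly below 0 in both genotype comparisons and mostly above 0 in both environment comparisons, and 0 passed the adjusted threshold.

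Rplp0 was followed in every library because the study used it to normalize qPCR. On the joint scale it had 581, 584 and 553 RPKM in Cort+/+ and 525 and 547 RPKM in Cort-/- BECs under NX/NG. After OGD-R it had 611, 693 and 611 RPKM in Cort+/+ and 513 and 724 RPKM in Cort-/- BECs. Its log2 differences were -0.10 (SE 0.09) and -0.06 (SE 0.28) between genotypes under NX/NG and OGD-R, and 0.15 (SE 0.14) and 0.19 (SE 0.28) between environments in Cort+/+ and Cort-/- BECs. None passed the threshold in limma. In Cort+/+ BECs its 3 OGD-R libraries lay above the 3 NX/NG libraries, and under NX/NG its 2 Cort-/- libraries lay below the 3 Cort+/+ libraries. The SD of its log2 level over the 10 libraries, 0.16, was close to that of the median member.

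**Figure D4:**
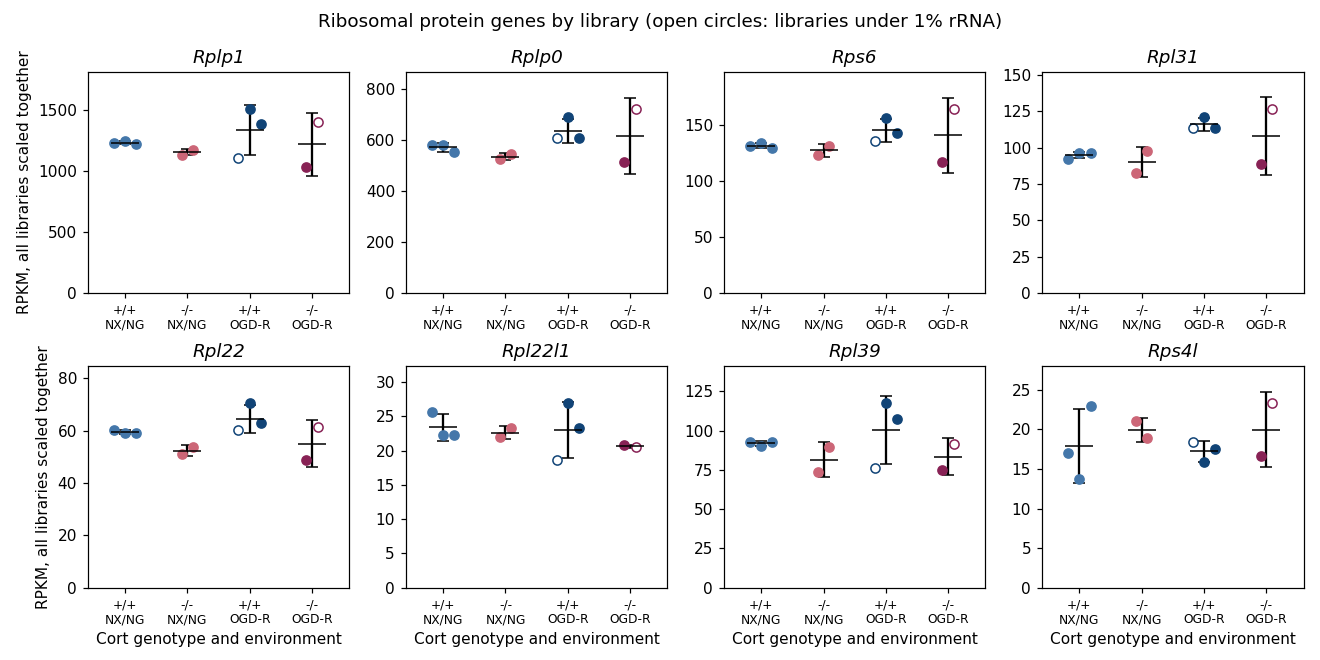
RPKM after joint scaling of 8 members in each library, with the group mean and SD (n = 3 for Cort+/+, n = 2 for Cort-/-), where open circles mark the 2 rRNA-poor libraries. The 2 Cort-/- OGD-R libraries are far apart for Rplp1, Rplp0, Rps6 and Rpl31, but not for Rpl22l1.

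Paralogs were set beside the genes they copy, first by the gene lengths of the deposited tables. Rpl3l, a form of Rpl3 of heart and skeletal muscle, had 1 read in Cort+/+ OGD-R replicate 1, 3 reads in Cort-/- OGD-R replicate 3 and 0 in the other OGD-R libraries. Rpl10l was not analysed here. Rpl39l stood at 0.730% to 3.10% of Rpl39, and Rpl7l1 at 9.04% to 11.3% of Rpl7. Rps4l stood at 3.61% to 6.77% of Rps4x.

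Rps27l, a p53-inducible paralog of Rps27, stood at 58.1% to 74.6% of the level of Rps27. Rpl22l1 stood at 42.5%, 37.6% and 37.7% of Rpl22 in Cort+/+ and at 43.2% and 43.1% in Cort-/- BECs under NX/NG. After OGD-R, it stood at 31.1%, 38.2% and 37.1% in Cort+/+ and at 42.6% and 33.4% in Cort-/- BECs, with the 2 lowest values in the rRNA-poor libraries. Under NX/NG the genotypes did not overlap in this ratio, but replicate 1 of Cort+/+ was within 1 percentage point of both Cort-/- libraries. The ratios depend on the lengths used. With the median annotated transcript as length, the mean under NX/NG of Rpl22l1 was 106% of that of Rpl22 in place of 40.7%, and that of Rps27l was 43.6% of Rps27 in place of 69.8%. Which of Rpl22l1 and Rpl22 was higher therefore turned with the length. Rpl7l1, Rps4l and Rpl39l stayed low at 10.5%, 3.48% and 0.935% of the genes they copy.

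Other genes of the translation machinery had the sign of the ribosomal protein genes in part. Of 29 elongation factors and other known TOP mRNAs, 26 had a lower mean in Cort-/- after OGD-R (median log2 difference -0.10) and 23 under NX/NG (-0.05), and 20 had a higher mean after OGD-R in Cort+/+ (0.03). In Cort-/- BECs, by contrast, 12 of 29 had a higher mean after OGD-R (-0.02), where 78 of 87 members did, and in the interaction 3 of 29 were above 0 (-0.06). In limma, 0 passed the adjusted threshold in the 5 comparisons. By library, the median of the 28 at 10 RPKM or more was highest, at 0.16, in the second Cort+/+ OGD-R replicate and lowest, at -0.20, in the first Cort-/- OGD-R replicate, as for the members. It was 0.07 in the third Cort-/- OGD-R replicate. Gas5, a TOP RNA that hosts small nucleolar RNAs, had 26.6, 28.2 and 27.6 RPKM in Cort+/+ and 23.7 and 24.7 RPKM in Cort-/- BECs under NX/NG on the joint scale (log2 difference -0.19, SE 0.05; limma, adjusted p = 0.430). It differed by -0.33 (SE 0.13; limma, adjusted p = 0.978) after OGD-R. Fau, whose product is cleaved to yield the small-subunit protein eS30, had 188, 194 and 195 RPKM under NX/NG and 221, 242 and 232 RPKM after OGD-R in Cort+/+ BECs (log2 difference 0.26, SE 0.08; limma, adjusted p = 0.881). Further genes with the smallest p in a comparison were Eef1g, an elongation factor subunit (-0.21, SE 0.07, NX/NG), the initiation factor genes Eif3k (0.15, SE 0.05, Cort+/+), Eif3e (-0.21, SE 0.12, Cort-/-) and Eif4a2 (-0.22, SE 0.11, OGD-R), and Hnrnpa1, an RNA-binding protein, in the interaction (-0.17, SE 0.12).

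The 78 mitochondrial ribosomal protein genes, which are nuclear genes for the separate ribosome of mitochondria, had a median log2 difference of 0.12 between OGD-R and NX/NG in Cort+/+ BECs, with 70 higher. The medians were -0.01 between genotypes under NX/NG, -0.04 between genotypes after OGD-R, 0.05 between environments in Cort-/- BECs and -0.05 in the interaction. None passed the adjusted threshold in limma, and 9 were under an unadjusted p of 0.05 in Cort+/+, each higher after OGD-R, where 3.01% of all genes were. Under that level there were 2 higher and 3 lower between genotypes under NX/NG, 1 lower after OGD-R, 2 below 0 in the interaction and 0 in Cort-/- BECs. Over all genes, 3.56% were higher and 4.82% lower between genotypes under NX/NG, and 1.71% were lower after OGD-R. In the interaction 1.17% were below 0, and in Cort-/- BECs 4.08% were under that level in either direction. Mrpl40 gave the smallest p (0.34, SE 0.07; limma, adjusted p = 0.717), followed by Mrpl18 (0.23, SE 0.07). Mrpl10 (-0.22, SE 0.06) and Mrps27 (0.25, SE 0.07) came first between genotypes under NX/NG, and Mrps18b (-0.26, SE 0.09) and Mrpl24 (-0.19, SE 0.10) after OGD-R. In Cort-/- BECs, Mrpl22 and Mrpl10 differed by 0.16 and 0.18 (SE 0.08 and 0.09), and in the interaction Mrps18b and Mrps27 had -0.30 and -0.27 (SE 0.12 and 0.11). By library, the 30 mitochondrial ribosomal protein genes at 10 RPKM or more had medians of -0.14 and 0.18 in Cort-/- OGD-R replicates 1 and 3, and of 0.17 in the second Cort+/+ OGD-R replicate.

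Genes for ribosome assembly and for its control had medians nearer to 0. The 60 genes of ribosome biogenesis and RNA polymerase I had median log2 differences between -0.04 and 0.02 in the 5 comparisons, and 0 passed the adjusted threshold in limma. Heatr3, which carries Rpl5 toward the nucleus, differed by -0.22 between genotypes under NX/NG (SE 0.05; limma, adjusted p = 0.391), the nuclear exosome subunit Exosc10 by 0.18 (SE 0.05) and the snoRNP protein Nhp2 by 0.18 (SE 0.07) between environments in Cort+/+ BECs. The importin Ipo7 differed by 0.13 (SE 0.05) between genotypes under NX/NG and by -0.31 (SE 0.13) between environments in Cort-/- BECs. Gnl3, the GTPase nucleostemin, and Nob1, the nuclease that trims the small-subunit rRNA, differed by -0.20 and -0.24 (SE 0.10 and 0.13) between genotypes after OGD-R, and the assembly factor Nip7 by -0.23 (SE 0.14) in the interaction.

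The 32 genes of mTOR and translation control had medians between -0.06 and 0.01, and 0 passed the adjusted threshold in limma. Pdcd4, an inhibitor of the helicase Eif4a, differed by -0.16 (SE 0.05; limma, adjusted p = 0.540) and Rictor, a subunit of mTORC2, by -0.27 (SE 0.10) between genotypes under NX/NG. Rps6ka1, a kinase of Rps6, differed by -0.35 (SE 0.16) between environments in Cort-/- BECs, and the mTORC1 subunit Rptor by 0.15 (SE 0.11) between genotypes after OGD-R. Mdm2 and Sesn2, targets of p53, differed by -0.18 and -0.27 (SE 0.08 and 0.16) after OGD-R in Cort+/+ BECs, Mtor by 0.15 (SE 0.09) in Cort-/- BECs, and Mlst8 by 0.22 (SE 0.14) in the interaction.

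Of 23 factors that resolve stalled ribosomes or signal translation stress, 17 had a higher mean in Cort-/- under NX/NG (median log2 difference 0.05), and 0 passed the adjusted threshold in limma in the 5 comparisons. Otud1, a deubiquitinase, had 6.99, 7.67 and 9.99 RPKM in Cort+/+ and 11.8 and 11.2 RPKM in Cort-/- BECs under NX/NG on the joint scale (log2 difference 0.49, SE 0.16; limma, adjusted p = 0.524). The kinases Eif2ak2 and Eif2ak3, which phosphorylate eIF2, differed by 0.32 (SE 0.15) under NX/NG and by 0.26 (SE 0.09) after OGD-R, respectively. Abce1, the ribosome recycling factor, differed by -0.27 (SE 0.08) between environments in Cort-/- BECs. Ccdc124 and Ifrd2, which bind idle ribosomes, differed by 0.20 and 0.23 (SE 0.08 and 0.14) between environments in Cort+/+ BECs, and Nemf, a factor that acts on stalled large subunits, by -0.17 (SE 0.13) in the interaction.

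**Figure D5:**
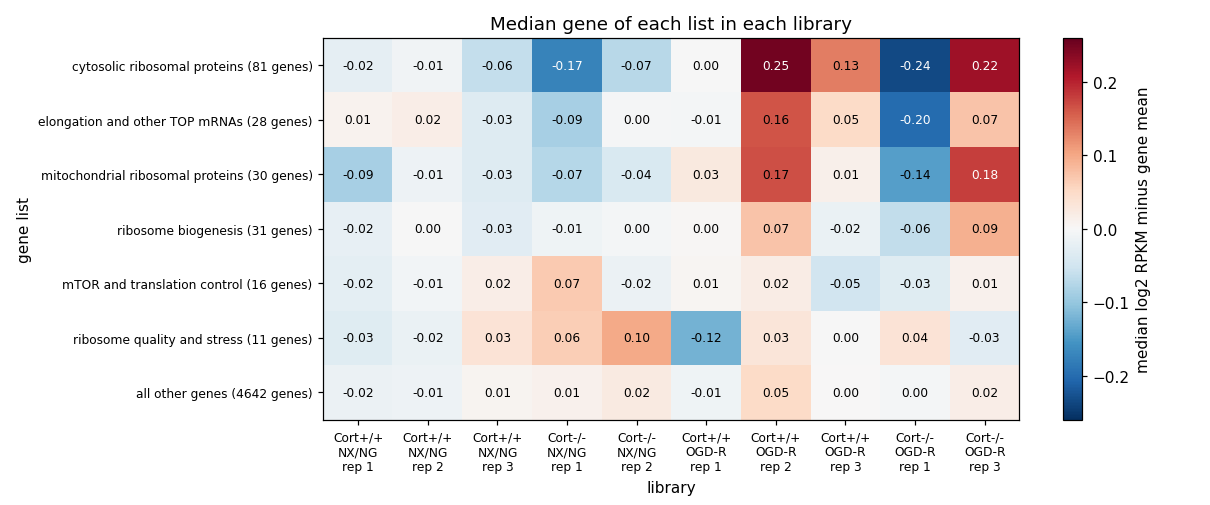
Median log2 RPKM of each gene list minus the mean of each gene over the 10 libraries, for genes at 10 RPKM or more, with the number of genes in parentheses. The contrast between Cort-/- OGD-R replicates 1 and 3 is -0.24 and 0.22 for cytosolic ribosomal proteins, and -0.14 and 0.18 for mitochondrial ribosomal proteins, whereas mTOR and translation control stays between -0.05 and 0.07.

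Named pseudogenes of ribosomal proteins drew 0.396 to 0.498 reads for every 100 reads on the members. The median log2 difference was -0.01 between genotypes under NX/NG and -0.11 after OGD-R (185 genes each), and 0.04 between environments in Cort+/+ (184 genes) and 0.00 in Cort-/- BECs (177 genes). In limma, 0 passed the adjusted threshold in any comparison. Over 13807 to 14072 genes of the whole series, and not for the pseudogenes alone, libraries were also compared in pairs within a group. In all 8 pairs, the counts of these genes differed by more than sampling noise, with a chi-square per gene of 11.4 to 204.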

How the data were processed

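RNA of primary Cort+/+ and Cort-/- BECs was sequenced in paired-end poly(A) libraries. The GEO labels and the published methods name different library kits, RNA amounts and read lengths. Processing by the authors used the reanalyzerGSE pipeline, chosen so that weakly expressed genes stayed in, and edgeR is listed in the submitters' processing notes without a version. The aligner, genome build and annotation are not given in the sources used here. The RPKM in each deposited table relate reads to gene length and to a library size that the authors had scaled over the 5 libraries of that environment, so genotypes were compared within a table. The tables also hold the authors' fold changes, p-values, FDR, logCPM and categories, which were not used. RPKM multiplied by length gave whole reads for at least 99.996% of values (tolerance 0.05), and both tables were rescaled together with trimmed means of M values for comparisons between environments.

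Log2(RPKM + 0.1) of every gene with a value above 0 was fitted with limma 3.58.1 (R 4.3.3, empirical Bayes with trend, two-sided), with p-values adjusted by Benjamini-Hochberg over all genes and a threshold of 0.05. Fold changes are on this scale, which understates those of low genes. All libraries with a column entered, including Cort+/+ OGD-R replicate 1, which the published heatmaps leave out. The fits were tested on simulated data, where false calls fell only on genes with few reads, a range that includes Rps12l1, Rpl3l, Rpl39l and Rps3a2. Deviations used the 81 members at 10 RPKM or more on average. Start-site sequences and their printed positions came from RefSeq GRCm38.p6. Gene types, transcript lengths and shared words came from GENCODE vM21, and both were matched by symbol. Their starts can differ: GENCODE begins Rpl22 at base 152325742, after the end of its printed window at 152325740. Whether cultures with the same replicate number in both environments came from 1 pool is not given in the sources used here. The main fits used no replicate block. The correlation of same-numbered deviations ranged from -0.39 to 0.11. It cannot decide this question, because deviations from a mean of 2 or 3 libraries depend on each other.

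Named genes, apart from items not reported here, were the 10 highest members, the 4 with the smallest p in each comparison, Rplp0, Rps6, Rpl5, Rpl11, paralogs with the genes they copy, members below 1 RPKM throughout, the 3 members in each direction that differed most from the median in each rRNA-poor library, and the 2 genes of smallest p per list and comparison. Members, lists and tests were chosen with earlier results of these data known. Intervals and limits for 0 reads cover counting error only.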

Additional observations from a re-analysis of the deposited data

How the results depend on the processing

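In the main comparisons and under every alternative, 0 members passed the adjusted threshold, with 1 exception: without Cort-/- OGD-R replicate 1, the genotype comparison after OGD-R called 1 member, Rps12l1, which rests on 1 read. Leaving out each replicate in turn gave member medians (log2) of -0.13 to -0.051 for genotype under NX/NG, -0.36 to 0.10 for genotype after OGD-R, 0.08 to 0.22 for OGD-R in Cort+/+, -0.12 to 0.35 for OGD-R in Cort-/- BECs and -0.27 to 0.18 for the interaction. A term for the rRNA-poor libraries gave -0.12 for OGD-R in Cort-/- BECs. Leaving out both rRNA-poor libraries, chosen after the data were seen, gave -0.43 for genotype after OGD-R, -0.12 for OGD-R in Cort-/- BECs and -0.33 for the interaction. Where a group is left with 1 library, it is assumed to vary like the other groups. The cause was not tested. With the replicate number as a replicate block, the medians were -0.12 for genotype under NX/NG, -0.07 after OGD-R, 0.14 for OGD-R in Cort+/+ and -0.04 for the interaction, with 0 members called. No paired analysis was possible for OGD-R in Cort-/- BECs because its groups share 1 replicate number. A term for rRNA was not used under NX/NG, where no library was rRNA-poor. A pseudocount of 1, a minimum of 1 RPKM in 2 libraries, quantile normalization, limma-voom, all groups in 1 fit, library sizes without rRNA, total reads as library size and members at 10 RPKM or more moved each median by less than the spread between replicates. Over all genes, limma called 0 under NX/NG and limma-voom 124, 0 and 5 for genotype after OGD-R, 9 and 1 for OGD-R in Cort+/+ BECs, and 3 and 0 for the interaction. With limma-voom, 23 members (7 in limma) were under an unadjusted p of 0.05 for genotype under NX/NG. Of all genes, 10.97% were (8.39% in limma). For OGD-R in Cort+/+, 22 members were (12 in limma), with 5.57% of all genes (5.48% in limma). With all groups in 1 fit, 0 members were in both comparisons, compared with 7.71% and 4.9998% of all genes, respectively. With quantile normalization the interaction had a median of 0.02. The share of reads on members shifted by more than the SD of its group in 7 of 10 libraries once rRNA was left out of the total.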
